A study of Mus musculus with 48 samples.

Results

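Livers carrying an activated beta-catenin allele together with a MYC transgene were compared between day 10 and day 4 after induction, 3 mice a day. Libraries were chosen by title: every BM library of either day was used, which gave 12 of the 48 libraries and 6 of the 24 mice. BM is the genotype Ctnnb1ex3/+; R26-LSL-MYC, in which Cre removes exon 3 of 1 Ctnnb1 allele and opens a MYC cassette at the Rosa26 locus. Male mice of a mixed C57BL/6 background, aged between 2 and 4 months, received the virus AAV8.TBG.Cre into the tail vein, and the TBG promoter limits Cre to hepatocytes. The wild-type mice (WT) and the mice with either allele alone (M, R26-LSL-MYC, and B, Ctnnb1ex3/+) received the same virus and were sampled on the same days, so that Cre and virus are shared by all groups. Induction dates differed and tissue was collected together. Each sample is an individual mouse, so the spread is between animals. From 1 lysate of each frozen liver piece, ribosome-protected fragments (RPF, the stretches of mRNA covered by ribosomes) and cytoplasmic RNA were sequenced.

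Beta-catenin is the transcriptional effector of WNT signalling. Its exon 3 encodes the residues through which the protein is marked for destruction, so that loss of the exon leaves it stable. In the adult liver WNT signalling sets the perivenous (zone 3) programme of glutamine synthesis and xenobiotic metabolism, while periportal (zone 1) hepatocytes make urea and glucose. MYC drives growth through ribosome production, nucleotide synthesis and entry into the cell cycle. The comparison asks how RNA and its occupancy by ribosomes differ between the early proliferative and the late state of livers that carry both alleles.

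Most members of the mitosis and DNA replication lists fell in RPF and in RNA, and promoters of such genes are known to carry a few recurrent elements. Promoters of members that the results turn on are shown here as the 250 bases before the start site (RefSeq, build GRCm38.p6, written 5′ to 3′ on the gene's strand). Capitals mark any match, on either strand, to the cell cycle element CHR (TTTGAA), the CCAAT box (CCAAT), an E2F site (TTTGGCGC, TTTCGCGC or TTTCCCGC), the E-box bound by MYC (CACGTG), the TCF element of the WNT pathway (CTTTGAT) or an HNF4 element (CAAAGTCCA or CAAAGGTCA). A TCF and an HNF4 match can share the letters CAAAG, and none of the motifs contains another. Cdk1 encodes the mitotic kinase, Top2a the topoisomerase that untangles chromosomes, Mcm2 a subunit of the replicative helicase and Ncl nucleolin of the nucleolus, while Cyp2c29 and Slc1a2 are zone 3 genes that moved in opposite directions.
Cdk1, chr10:69352913-69353162, minus strand: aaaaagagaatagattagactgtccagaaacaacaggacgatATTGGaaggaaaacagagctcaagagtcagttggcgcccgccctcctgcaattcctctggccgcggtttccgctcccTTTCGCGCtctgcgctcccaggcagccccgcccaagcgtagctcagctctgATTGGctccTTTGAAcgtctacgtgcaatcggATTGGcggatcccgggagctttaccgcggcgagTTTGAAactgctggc
Top2a, chr11:99024190-99024439, minus strand: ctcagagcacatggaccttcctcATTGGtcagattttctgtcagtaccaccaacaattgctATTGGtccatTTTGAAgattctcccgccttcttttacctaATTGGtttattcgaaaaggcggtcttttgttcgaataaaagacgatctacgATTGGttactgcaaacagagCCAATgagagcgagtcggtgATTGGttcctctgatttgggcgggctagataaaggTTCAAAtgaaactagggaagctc
Ccnb1, chr13:100786487-100786736, minus strand: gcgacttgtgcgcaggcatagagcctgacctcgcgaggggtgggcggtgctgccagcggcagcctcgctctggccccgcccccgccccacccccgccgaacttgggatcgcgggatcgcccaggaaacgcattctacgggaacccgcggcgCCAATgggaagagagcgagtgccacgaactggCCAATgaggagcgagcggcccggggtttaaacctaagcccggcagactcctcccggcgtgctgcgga
Mcm2, chr6:88898781-88899030, minus strand: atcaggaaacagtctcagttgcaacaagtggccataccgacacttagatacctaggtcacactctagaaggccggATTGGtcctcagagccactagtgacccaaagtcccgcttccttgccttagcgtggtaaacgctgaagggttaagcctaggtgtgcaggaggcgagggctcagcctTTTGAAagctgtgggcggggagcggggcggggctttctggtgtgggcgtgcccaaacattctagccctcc
Ncl, chr1:86359456-86359705, minus strand: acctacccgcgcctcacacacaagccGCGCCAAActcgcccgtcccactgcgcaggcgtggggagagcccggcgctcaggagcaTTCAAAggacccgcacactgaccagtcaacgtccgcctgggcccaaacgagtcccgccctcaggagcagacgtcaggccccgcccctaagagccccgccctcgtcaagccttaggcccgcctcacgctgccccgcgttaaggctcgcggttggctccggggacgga
Cyp2c29, chr19:39286835-39287084, plus strand: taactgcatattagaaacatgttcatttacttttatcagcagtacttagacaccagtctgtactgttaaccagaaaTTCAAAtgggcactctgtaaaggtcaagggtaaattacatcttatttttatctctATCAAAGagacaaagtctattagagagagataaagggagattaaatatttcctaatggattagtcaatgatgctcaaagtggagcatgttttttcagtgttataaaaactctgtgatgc
Slc1a2, chr2:102706188-102706437, plus strand: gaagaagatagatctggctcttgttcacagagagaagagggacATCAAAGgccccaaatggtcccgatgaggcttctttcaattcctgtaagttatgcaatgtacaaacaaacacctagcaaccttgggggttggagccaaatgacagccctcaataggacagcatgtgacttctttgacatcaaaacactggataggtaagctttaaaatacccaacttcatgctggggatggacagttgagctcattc

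Of the 32851 promoters of 27025 genes in the table, 33.8% held a CCAAT box, 16% the CHR letters and 1.5% an E2F match. Among 75 promoters of 68 mitosis genes the shares were 72.0% for the CCAAT box and 36.0% for the CHR letters, and among 45 promoters of 44 replication-dependent histone genes they were 80.0% and 40.0%. Of 56 promoters of 46 DNA replication genes 57.1% held a CCAAT box, 19.6% an E2F match and 16.1% the CHR letters, the last about the share of all promoters. The E-box stood in 6.8% of 103 promoters of 89 ribosome biogenesis genes, in 9.5% of cytosolic ribosomal protein promoters, in 10.7% of DNA replication promoters, in 14.3% of zone 3 promoters and in 3 of 19 promoters of the WNT feedback and beta-catenin target list (15.8%), against 6.0% of all promoters. The TCF letters stood in 2 of these 19 (10.5%), in 3 of 35 promoters of 30 zone 3 genes (8.6%), in 6.2% of zone 1 promoters, in 6.7% of histone promoters and in 3.2% of all promoters, and 51.4% of zone 3 promoters held a CCAAT box. The printed Top2a promoter held 6 CCAAT boxes and 2 CHR matches, Cdk1 held 3 and 2, Ccnb1 held 2 CCAAT boxes and no CHR match, Mcm2 held 1 of each, and the Ncl promoter held no E-box.

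The RPF libraries held 12820973 to 13888368 counts at day 4 and 11162699 to 14380713 at day 10, and the RNA libraries 4811465 to 5411080 and 3254141 to 4060257. Values below are CPM, counts scaled to each library's size with TMM factors, and a gene was called when edgeR's quasi-likelihood test gave an adjusted p under 0.1. Changes are log2 values of day 10 over day 4. Where a standard error (SE) is given, it is the absolute change divided by the square root of the test's F statistic. It is approximate, and for genes with few counts on a day it may be smaller than counting error. At both days Alb, the hepatocyte product albumin, was the most abundant RNA, at a mean of 24641 TPM (the RNA unit scaled for transcript length and library size) at day 4 and 20997 at day 10. Mouse 1 of day 10 stood apart from the other day 10 mice. Over 8449 genes its log2 RPF values correlated with those of mice 2 and 3 at r = 0.937 and 0.922, against 0.992 between mice 2 and 3 and 0.989 to 0.994 among the day 4 mice, and it correlated with the day 4 mice at 0.902 to 0.921 where mice 2 and 3 did so at 0.834 to 0.864. With the day 10 mice of B it correlated in RPF at 0.927 to 0.938, about as highly as with its own group, and with those of M at 0.906 to 0.930. In RNA it lay closer to its own group. There it correlated with mice 2 and 3 at 0.952 and 0.943 and with the day 10 mice of B at 0.917 to 0.927. Among 1830 genes that were called without mouse 1 and whose mean RPF change in mice 2 and 3 passed 1 on the log2 scale, the median change of mouse 1 was 48.5% of that mean, and 197 genes (10.8%) moved the other way in it. In RNA the same held for 1467 genes, with a median of 57.7% and 94 genes (6.4%) the other way. Its RPF library was the deepest of the 3, and its labels do not differ from theirs. Counts without it are given beside many of the list counts. Counts for Ctnnb1 span the whole coding sequence and do not check the loss of exon 3. Ctnnb1 fell in RPF from 379, 370.3 and 367 CPM at day 4 to 303, 269.9 and 284 CPM at day 10 (log2 -0.41, SE 0.12, adjusted p = 0.0334).

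RPF counts were called higher at day 10 for 2646 genes and lower for 2632 of 11648 tested, 22.7% and 22.6%. RNA gave 2121 higher and 2364 lower of 11294, 18.8% and 20.9%. Without day 10 mouse 1 the shares were 33.3% higher and 35.4% lower in RPF (3919 and 4164 of 11764) and 27.0% and 28.8% in RNA (3141 and 3344 of 11627). Of the 5278 RPF calls made with all mice 5227 were made the same way without mouse 1 and none the other way, and of the 4485 RNA calls 4360 and none. Among 10676 genes tested in both, 1545 were higher in both and 1694 lower in both, while 11 were called in opposite directions. The genes higher in both made up 64.9% of the RPF calls and 75.6% of the RNA calls in that direction, and those lower in both 68.5% and 73.8%. The median change over all genes tested was 0.00 in RPF and in RNA, and the median absolute change over the genes tested in both was 0.47 in RPF and 0.38 in RNA.

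**Figure D1:**
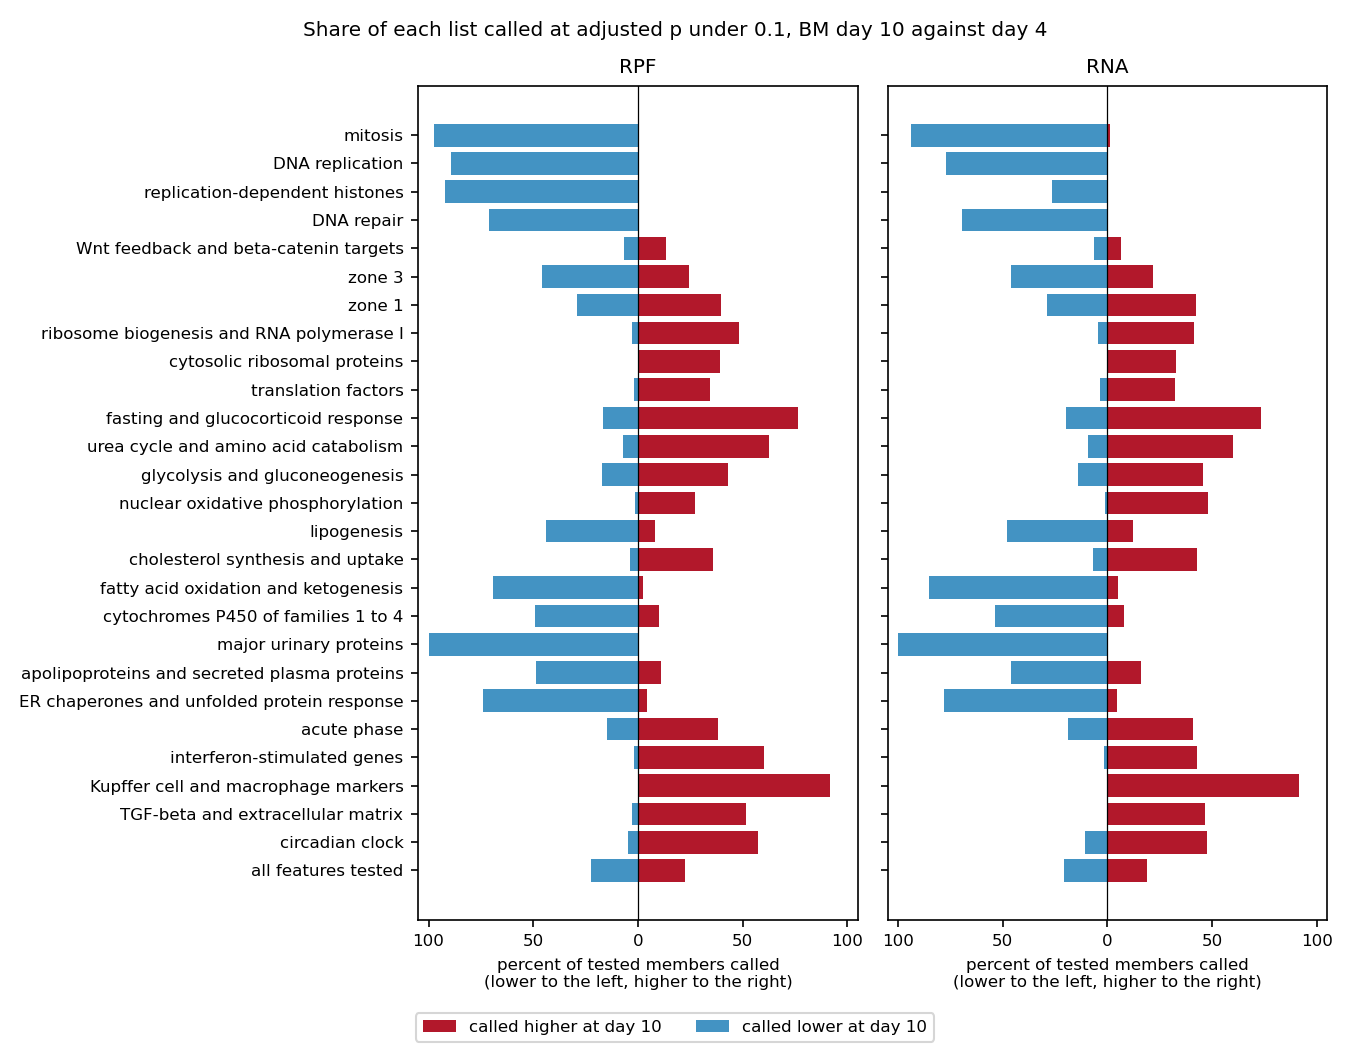
Percent of the tested members of 26 gene lists, and of all genes tested, that were called higher (red, to the right) or lower (blue, to the left) at day 10 than at day 4, for RPF and for RNA. Mitosis has 78 of 80 members called lower in RPF and the major urinary proteins 15 of 15, beside 22.6% of all genes.

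Mitotic genes fell at day 10. Of 81 mitosis genes 80 passed the filter on low RPF counts, and 78 of them fell and none rose, with a median log2 change of -3.11. In RNA 76 of 81 fell and 1 rose, with a median of -2.04. Mki67 (ENSMUSG00000031004, chr7:135291513-135318299 on GRCm39), the proliferation antigen Ki-67, stood at 156, 90.96 and 104 RPF CPM in the day 4 mice and at 17.3, 14.8 and 10.2 in the day 10 mice. The days did not overlap, and the difference was 8.42-fold (log2 -3.07, SE 0.28, adjusted p = 0.0007). Its RNA went from 315, 197 and 211 to 49.6, 28.2 and 23.6 CPM (log2 -2.83, SE 0.29, adjusted p = 0.000291). Ccnb1, the cyclin B partner of Cdk1, fell in RPF from 162, 99.02 and 117 to 16.2, 7.22 and 10.2 CPM (log2 -3.51, SE 0.33, adjusted p = 0.00076). Cdk1 fell 8.36-fold in RPF and 11.5-fold in RNA. For Top2a RPF went from 181, 112 and 128 to 23.5, 6.597 and 6.61 CPM and RNA from 215, 139.7 and 171 to 59.2, 71.1 and 76.3 CPM, a fall of 11.6-fold in footprints and 2.56-fold in RNA. Day 10 mouse 1 held the highest RPF value of its day for Mki67, Ccnb1, Cdk1 and Top2a, while still below all 3 day 4 mice.

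Replication and repair genes were also lower. Of 56 DNA replication genes tested in RPF 50 fell and none rose (median -1.86), and in RNA 40 of 52 fell (median -1.11). Mcm2 went from 38.1, 21.4 and 25.9 to 9.34, 2.56 and 2.40 RPF CPM (log2 -2.58, SE 0.53, adjusted p = 0.0103). Rrm2, the small subunit of ribonucleotide reductase that makes deoxynucleotides, fell from 168, 80.9 and 104.5 to 21.9, 10.8 and 8.92 RPF CPM. Pcna, the sliding clamp of replication, did not pass the test in RPF (log2 -0.62, adjusted p = 0.114) and fell in RNA (log2 -1.10, adjusted p = 0.00288). DNA repair gave 27 of 38 tested members lower in RPF and none higher (median -1.86), with 25 of 36 lower in RNA (median -0.86). Of 53 replication-dependent histone genes 38 could be tested in RPF and 35 of these fell (median -1.70), whereas in RNA 14 of 53 fell and none rose (median -0.25), and without mouse 1 14 fell and 17 rose (median -0.08). Histone genes are near-identical copies whose reads may be split between them, so a member's own value is uncertain.

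Of 20 G1 cyclins, CDKs and their brakes 5 rose and 5 fell in RPF (median -0.05), which is near the shares of all genes, and 6 rose and 8 fell without mouse 1 (median -0.20). In RNA 2 rose and 7 fell (median -0.28). Cdkn1a, the p21 brake on CDKs, rose from 49.7, 43.3 and 47.1 to 60.97, 107 and 129 RPF CPM (log2 1.06, SE 0.27, adjusted p = 0.0212). Cdk2, the kinase of S phase entry, fell from 16.6, 11.8 and 15.5 to 4.70, 4.19 and 4.38 RPF CPM, while its RNA was 14.2, 12.5 and 12.6 at day 4 and 9.33, 13.3 and 11.4 at day 10. Ccnd1, cyclin D1, split the day 10 mice: RPF stood at 44.9, 42.99 and 50.1 CPM at day 4 and at 57.4, 16.1 and 16.4 at day 10. Its test gave a log2 change of -0.64 with all mice (adjusted p = 0.318) and -1.52 without mouse 1 (adjusted p = 4.48e-06).

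**Figure D2:**
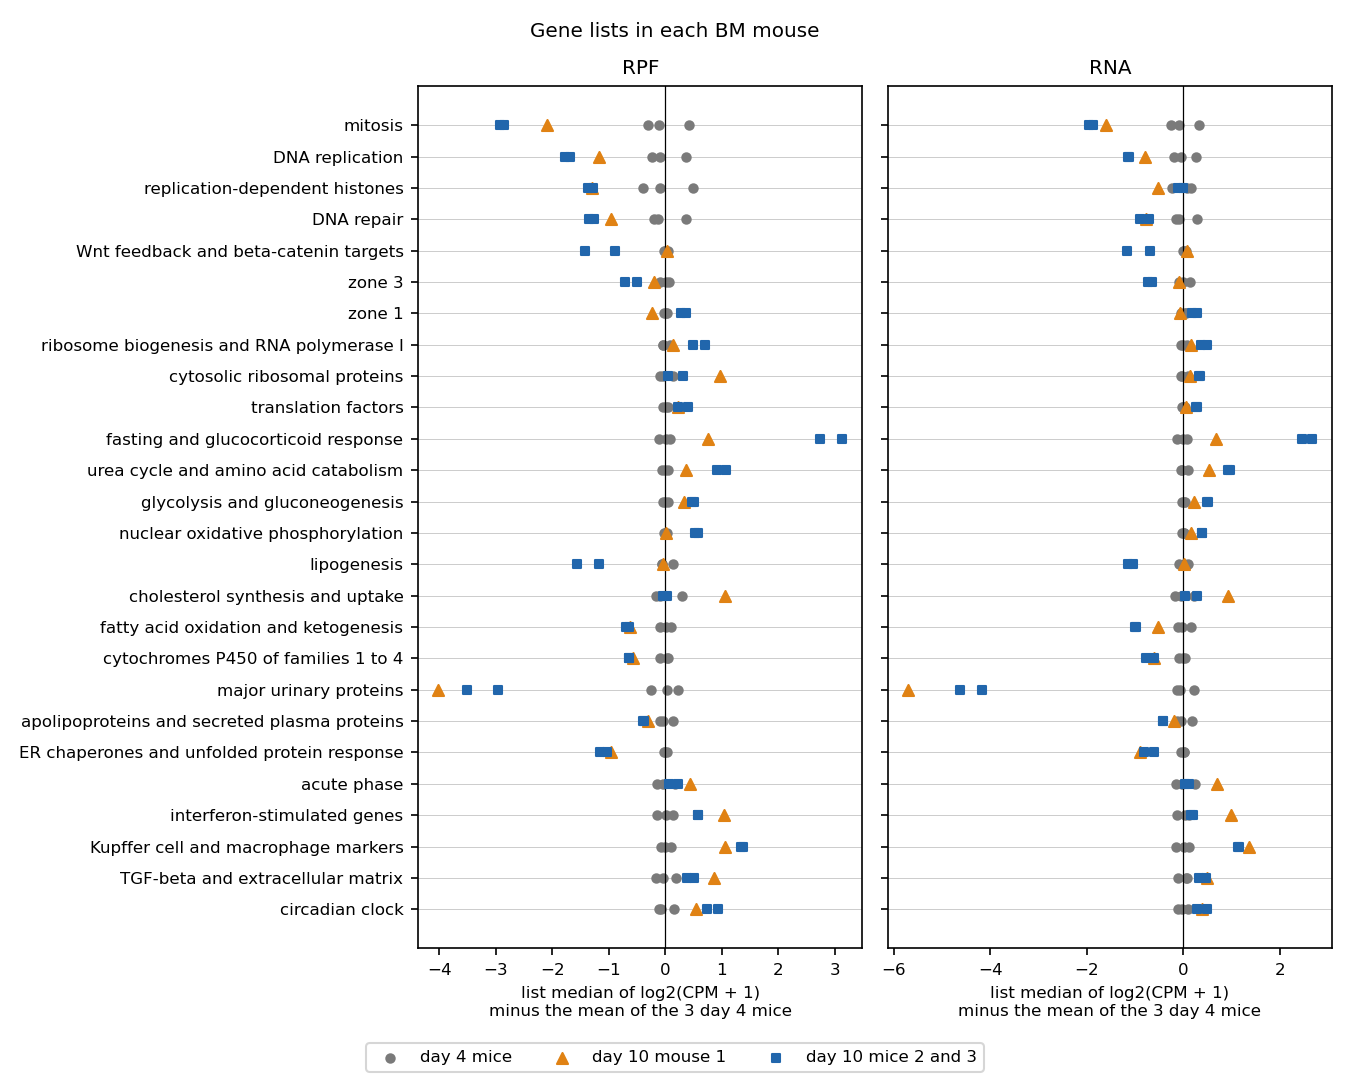
Median over the members of 26 gene lists of log2(CPM + 1) in each mouse, minus the mean of the 3 day 4 mice, for RPF and RNA, with grey circles for day 4, an orange triangle for day 10 mouse 1 and blue squares for day 10 mice 2 and 3. Mitosis, DNA replication and the major urinary proteins lie to the left of day 4 in all 3 day 10 mice, while mouse 1 lies nearer to day 4 for WNT targets, lipogenesis and the fasting genes.

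The feedback targets Axin2, Notum and Lgr5 were at or above day 4 levels in mouse 1 and below them in mice 2 and 3. Of 20 listed WNT feedback and target genes 15 were tested in RPF, and 2 rose and 1 fell with all mice (median -0.61). Without mouse 1, 2 rose and 11 fell (median -1.41), and in RNA the count went from 1 higher and 1 lower of 16 to 1 and 11. Axin2, a negative feedback scaffold of the pathway, stood at 27.6, 28.4 and 23.6 RPF CPM at day 4 and at 26.7, 10.5 and 6.196 at day 10. The change was -0.90 with all mice (SE 0.47, adjusted p = 0.173) and -1.69 without mouse 1 (SE 0.21, adjusted p = 8.41e-05). Notum, the secreted enzyme that inactivates WNT ligands, was at 61.1, 82.96 and 70.3 CPM and then at 71.9, 21.5 and 12.7, and Lgr5, a receptor that amplifies WNT signals, at 92.5, 91.7 and 75.9 and then at 116, 46.1 and 29.99. Both split the day 10 mice in the same way as Axin2. Tcf7l2, a DNA-binding partner of beta-catenin, rose by 0.42 (adjusted p = 0.085).

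Perivenous genes did not move as a block. Of 37 tested zone 3 genes 9 rose and 17 fell in RPF (median -0.46), and 8 rose and 17 fell in RNA (median -0.35). The rises were near the share of all genes called higher (22.7% in RPF and 18.8% in RNA). The falls exceeded the share of all genes called lower (22.6% and 20.9%). Without mouse 1 the counts were 12 and 23 in RPF (median -0.69) and 8 and 20 in RNA (median -0.70). Glul, glutamine synthetase of the innermost perivenous hepatocytes, was at 3639.6, 4207 and 4159.5 RPF CPM at day 4 and 3478, 2487 and 1629 at day 10 (log2 -0.69, SE 0.27, adjusted p = 0.0862). Slc1a2, a glutamate transporter of the same cells, rose from 419, 472 and 379 to 1499.7, 1749 and 1651 CPM (log2 1.92, SE 0.16, adjusted p = 0.000476). The surface antigen gene Ly6d rose 5.06-fold, from 7.58, 6.82 and 7.41 to 67.5, 20.9 and 24.4 CPM. Cyp2c29, a perivenous P450, fell from 2199.6, 2268 and 2109 to 368, 178 and 109.9 CPM (log2 -3.36, SE 0.43, adjusted p = 0.00206), and Cyp1a2, which metabolises caffeine, went from 1897, 2117 and 2108 to 941, 260.4 and 180.1. Cyp2e1, the ethanol-oxidising P450, did not pass the test (log2 -0.09, adjusted p = 0.783). All 3 day 10 mice were above the day 4 mice for Slc1a2 and Ly6d, below them for Cyp2c29 and Cyp1a2, and mixed with them for Cyp2e1.

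Periportal genes moved in both directions. Of 38 tested zone 1 genes 15 rose and 11 fell in RPF (median 0.28), with 16 and 11 in RNA (median 0.15). Cyp2f2, a periportal P450 that serves as a zone 1 marker, fell from 511, 317 and 441 to 9.86, 30.04 and 28.8 RPF CPM (log2 -4.24, SE 0.45, adjusted p = 0.00115). Of 20 genes of zone 2 and the IGF axis 9 rose and 4 fell (median 0.57). Etnppl, a phospholyase of phosphoethanolamine, was at 38.5, 23.3 and 30.7 CPM at day 4 and at 21.2, 370.1 and 723 at day 10, so that mouse 1 lay below the day 4 mice and the other day 10 mice far above them (log2 3.56, SE 1.03, adjusted p = 0.0341).

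Reads on Myc cannot be divided between the endogenous gene and transgene reads that match it. Its RPF were at 44.4, 59.2 and 55.97 CPM at day 4 and 57.95, 121 and 164 at day 10 (log2 1.08, SE 0.35, adjusted p = 0.0507), with mouse 1 inside the day 4 range, and its RNA was at 19.6, 29.6 and 22.97 and 20.9, 48.8 and 52.96 (adjusted p = 0.111). Of 12 MYC network genes tested in RPF 5 rose and 3 fell (median 0.32), and 7 and 3 without mouse 1 (median 0.54). Max, the obligate partner of MYC, rose 2.45-fold, from 5.44, 5.31 and 6.55 to 11.95, 14.05 and 17.3 CPM, and Mnt, a repressor that also pairs with Max, rose by 1.78 on the log2 scale (adjusted p = 0.0177). Mlxipl, the carbohydrate response factor ChREBP, fell by 1.54 on the log2 scale (adjusted p = 0.0117). Mxd3, a Max partner of proliferating cells, had no RNA count in any day 10 mouse and was at least 7.22-fold lower there.

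Ribosome production genes rose in more members than they fell. Of 110 genes of ribosome biogenesis and RNA polymerase I 53 rose and 3 fell in RPF (median 0.49), and 45 rose and 5 fell of 109 in RNA (median 0.37). Without mouse 1 the RPF count was 84 higher and 5 lower. Ncl was at 771, 652 and 593 RPF CPM at day 4 and 771, 1301 and 1609.8 at day 10 (log2 0.84, SE 0.27, adjusted p = 0.0487), with mouse 1 at the highest day 4 value. Gnl3, the nucleolar GTPase nucleostemin, rose from 71.8, 60.3 and 57.2 to 73.9, 189.9 and 252 CPM, and Polr1a, the largest subunit of RNA polymerase I, from 73.8, 74.8 and 63.8 to 111, 156 and 162 (log2 0.99, SE 0.18, adjusted p = 0.00666). In all 3 genes mice 2 and 3 exceeded mouse 1. Fbl, the methyltransferase fibrillarin, and Npm1, nucleophosmin, did not pass the test, at log2 0.25 and 0.17.

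Ribosomal protein genes and translation factors had more members higher than lower. Of 84 cytosolic ribosomal protein genes 79 were tested in RPF, and 31 rose and none fell (median 0.48). More members than that rose in RPF between the same days in WT and in B, as given below. In RNA 27 of 83 rose and none fell (median 0.25). Together they took 10.8 to 11.4% of TPM at day 4 and 14.4 to 15.3% at day 10. In RPF counts they took 1.34%, 1.42% and 1.29% in the day 4 mice and 2.78% in mouse 1 against 1.44% and 1.60% in mice 2 and 3 of day 10. Without mouse 1 the RPF count was 34 higher and 3 lower with a median of 0.18, and the RNA count 57 higher and 1 lower. Fau, which encodes a ribosomal protein of the small subunit, rose from 61.97, 59.4 and 56.6 to 146, 113 and 133 RPF CPM (log2 1.11, SE 0.14, adjusted p = 0.00178). Of 52 translation factors 18 rose and 1 fell (median 0.31, 30 and 6 without mouse 1), among them Eif2b3, a subunit of the exchange factor for eIF2, which rose 2.93-fold. Eef2, the elongation factor that moves the ribosome along, stood at 453, 741 and 545 RPF CPM at day 4 and at 1746, 288 and 388 at day 10. Its change was 0.44 with all mice (adjusted p = 0.614) and -0.80 without mouse 1 (adjusted p = 0.00657), so that mouse 1 sets the sign. Aminoacyl-tRNA synthetases gave 5 higher and 4 lower of 22, no more than the shares of all genes, and 10 and 7 without mouse 1. No CCT chaperonin subunit of 8 passed the test with all mice, and 4 were higher without mouse 1.

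**Figure D3:**
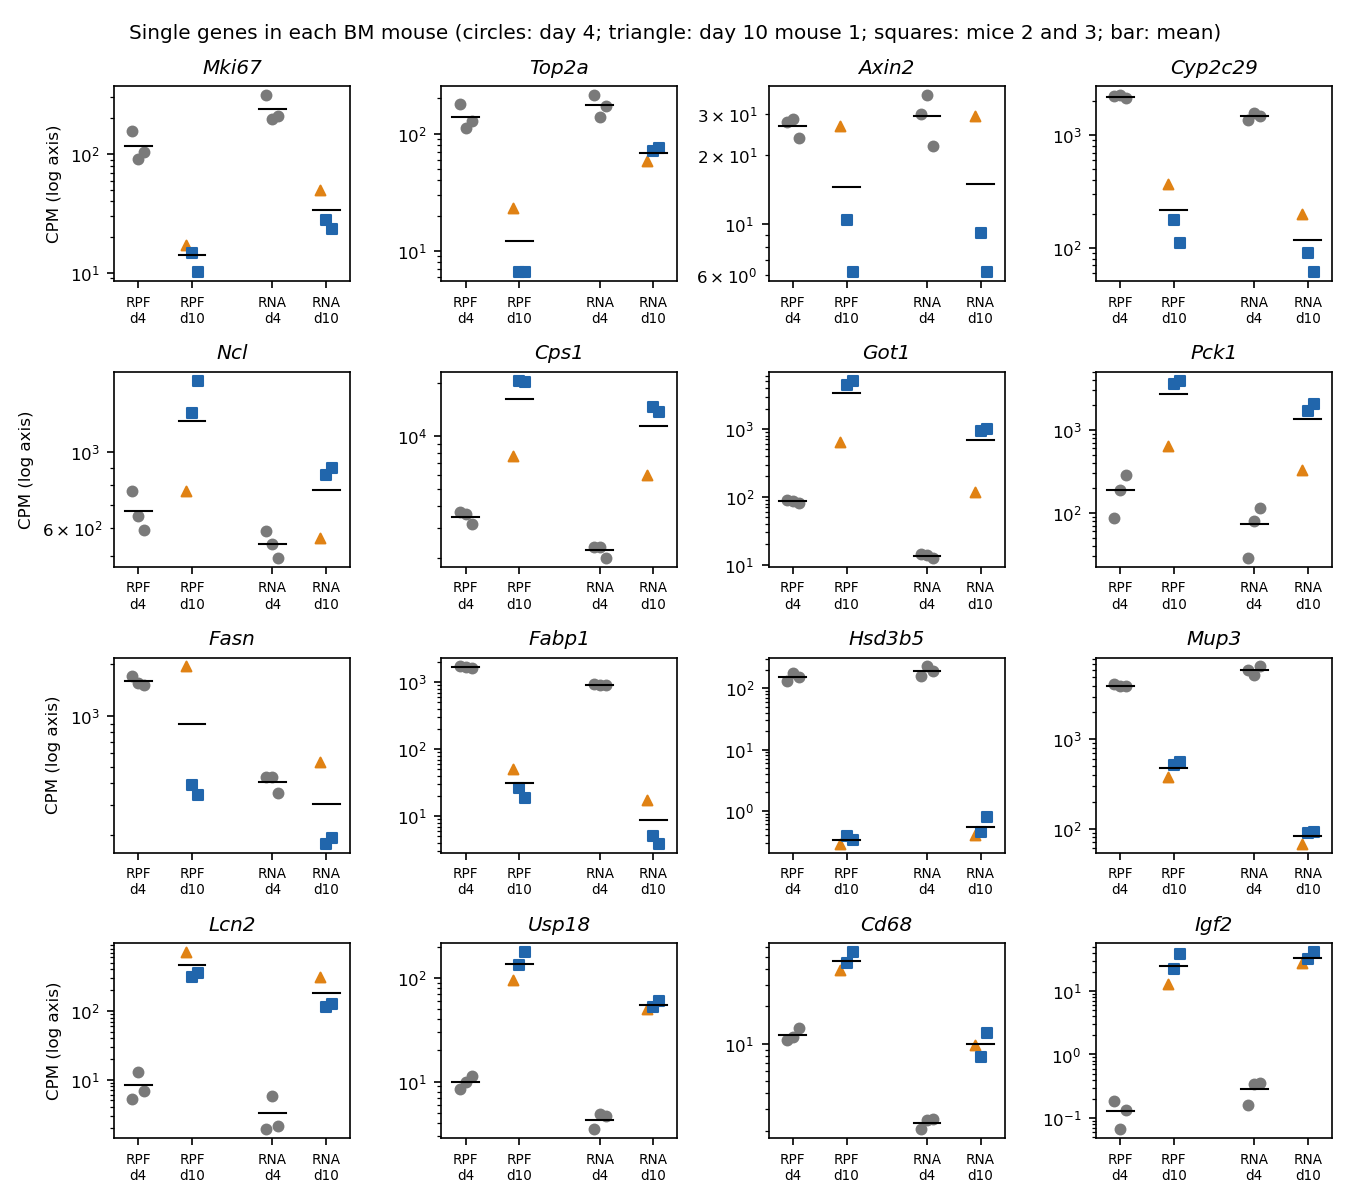
CPM of 16 genes in each mouse on a log axis, for RPF and RNA, with day 4 and day 10 side by side and a bar at the mean of each day. Mki67 lies at 91.0 to 156 RPF CPM at day 4 and 10.2 to 17.3 at day 10, while in day 10 mouse 1 Axin2 lies among the day 4 mice and Fasn above them.

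Most genes of the fasting list and of the urea cycle and amino acid list rose at day 10. The fasting and glucocorticoid list had 23 of 30 tested members higher and 5 lower in RPF, with a median of 2.65, and 22 higher and 6 lower in RNA, with a median of 2.37. Pck1, the committing enzyme of gluconeogenesis, stood at 87.8, 190.3 and 284 RPF CPM at day 4 and at 649, 3547 and 3922 at day 10 (log2 3.82, SE 0.74, adjusted p = 0.0086). Ppargc1a, a coactivator induced by fasting, rose 19.2-fold and Igfbp1, a secreted IGF-binding protein, 20.9-fold, from 80.1, 175 and 137 to 318, 3425 and 4604 CPM. The metallothionein gene Mt1 went from 3.18, 17.1 and 5.09 to 462, 831 and 926 CPM and Mt2 from 0.611, 6.82 and 1.26 to 148, 325 and 410.4. Lpin1, a phosphatidate phosphatase, rose from 34.04, 24.6 and 23.7 to 105.3, 807 and 1326 CPM (log2 4.74, SE 0.85, adjusted p = 0.00637). In each of these genes all 3 day 10 mice were above all day 4 mice, and mouse 1 was the lowest of day 10. The list took 0.450 to 0.507% of RPF counts at day 4 and 0.704%, 2.71% and 3.11% at day 10.

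Urea cycle and amino acid catabolism had 35 of 56 members higher and 4 lower in RPF (median 0.81, 42 and 9 without mouse 1), and 33 higher and 5 lower of 55 in RNA (median 0.82). Their share of RPF counts went from 3.64 to 3.75% at day 4 to 6.92%, 12.8% and 13.1% at day 10. Cps1, the entry enzyme of the urea cycle, rose from 3679, 3586 and 3128 to 7658, 20603 and 20231 CPM (log2 2.20, SE 0.38, adjusted p = 0.0057), and Ass1, argininosuccinate synthase, rose 4.21-fold. Got1 (chr19:43488188-43513674 on GRCm39), the cytosolic aspartate aminotransferase, went from 90.8, 86.6 and 81.1 to 638, 4472 and 5148 RPF CPM and from 14.4, 13.8 and 12.6 to 119, 937 and 1000.3 in RNA, 38.99-fold and 50.2-fold. Acmsd, an enzyme of tryptophan breakdown, rose 19.1-fold and Cth, which makes cysteine from cystathionine, 6.39-fold. Csad, the decarboxylase of taurine synthesis, fell from 596, 698 and 625 to 59.8, 47.1 and 35.8 CPM. Glycolysis and gluconeogenesis had 15 members higher and 6 lower of 35 (median 0.40, 22 and 10 of 36 without mouse 1), and of 81 nuclear genes of oxidative phosphorylation 22 rose and 1 fell in RPF (median 0.36), 65 and 2 without mouse 1.

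Lipogenesis and fatty acid oxidation genes fell in most of the members called. Of 25 lipogenesis genes 2 rose and 11 fell in RPF (median -0.87), and without mouse 1 the count was 2 and 21 (median -1.26). Fasn, fatty acid synthase, was at 1709, 1556 and 1523 RPF CPM at day 4 and at 1950.0, 390.2 and 344 at day 10, a change of -0.87 with all mice (adjusted p = 0.311) and of -2.14 without mouse 1 (adjusted p = 5.29e-07). Me1, the malic enzyme that supplies NADPH, fell from 438, 359 and 383 to 52.2, 49.2 and 34.3 CPM in all 3 mice. Fatty acid oxidation had 1 member higher and 29 lower of 42 in RPF (median -0.70) and 2 higher and 35 lower of 41 in RNA (median -0.87). Fabp1, the fatty acid carrier of hepatocyte cytoplasm, fell from 1726, 1707 and 1639 to 49.9, 26.5 and 18.9 CPM (log2 -5.76, SE 0.40, adjusted p = 0.000257), and its RNA fell by 103-fold. Cpt1a, which admits fatty acids to mitochondria, rose by 0.74 on the log2 scale (adjusted p = 0.0462). Cholesterol synthesis and uptake had 10 higher and 1 lower of 28, with Sqle, squalene epoxidase, at 87.4, 53.3 and 57.6 CPM at day 4 and 223, 168 and 150.1 at day 10. Without mouse 1 that count was 12 higher and 10 lower.

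Detoxification genes fell more often than they rose. Of 69 P450 genes of families 1 to 4 49 were tested in RPF, of which 5 rose and 24 fell (median -0.43). Without mouse 1 the count was 11 higher and 29 lower of 50 (median -0.78). Conjugation enzymes of the UGT, GST and SULT families gave 9 higher and 25 lower of 46 (median -0.55, 15 and 28 of 48 without mouse 1), and bile acid synthesis and transport 10 higher and 14 lower of 30 (median -0.55, 14 and 16 without mouse 1). The uptake carriers Slco1a1 and Slco1a4 moved in opposite directions, Slco1a1 from 883, 863 and 838 to 21.9, 35.9 and 49.1 RPF CPM and Slco1a4 from 95.95, 88.4 and 100.0 to 441, 1382 and 1797. Sult1e1 (chr5:87723828-87739461 on GRCm39), the estrogen sulfotransferase, had 3 RPF counts over the 3 day 4 mice and 27578 over the day 10 mice, a scaled ratio of 10175 with a counting interval of 3481 to 49340. In CPM it stood at 282, 867 and 954 at day 10, in all 3 mice.

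The major urinary proteins (Mup), pheromone carriers that the liver of male mice secretes in bulk, fell as a family. Of 22 Mup genes 15 were tested in RPF and all 15 fell (median -3.86), and all 22 fell in RNA (median -4.72). Their summed RNA went from 16.003%, 12.99% and 13.64% of TPM in the day 4 mice to 0.764%, 1.14% and 0.952% at day 10, and of the 15 most abundant RNAs 9 were Mup at day 4 and 1 at day 10. Mup3 was at 4137, 3940.1 and 3919.5 RPF CPM at day 4 and 378, 511 and 553 at day 10, and at 5947, 5202 and 6570.4 and 67.7, 89.6 and 92.4 in RNA. Mup genes are near-identical, and reads of a member cannot be assigned with certainty. Hsd3b5 (chr3:98525941-98553068 on GRCm39), a steroid dehydrogenase of male liver, fell from 133, 179 and 152 to 0.290, 0.388 and 0.330 RPF CPM (log2 -8.85, SE 0.24, adjusted p = 8.21e-06). Elovl3, a fatty acid elongase also higher in males, fell from 194, 167 and 165 to 0.638, 0.543 and 0.909 CPM. In a list of genes known to be higher in male mouse liver, put together after these values were seen, 18 of 20 fell in RPF and none rose, and in the matching female list 8 rose and 2 fell of 13 tested. In RNA 19 of 20 fell in the male list, while the female list gave 3 higher and 3 lower of 12 (median -0.02). Ghr, the growth hormone receptor, fell 2.51-fold, from 336, 362 and 356 to 193, 121 and 115 CPM.

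Genes of secretion fell in most of the members called. Of 23 genes of ER chaperones and the unfolded protein response 1 rose and 17 fell in RPF (median -1.02), and 1 and 18 in RNA (median -0.70). Sdf2l1, a chaperone cofactor of the ER, fell from 56.04, 49.3 and 53.3 to 17.9, 12.7 and 7.77 CPM and Ern1, the stress sensor IRE1, from 54.1, 80.1 and 79.4 to 28.7, 11.3 and 16.03. Hspa5, the chaperone BiP, did not pass the test in RPF (log2 -0.49, adjusted p = 0.145) and fell in RNA by 0.70 on the log2 scale (adjusted p = 0.0141). Coagulation and complement had 4 higher and 16 lower of 40 (median -0.39, 6 and 26 without mouse 1), with C9, a part of the membrane attack complex, 6.41-fold lower. Apolipoproteins and secreted plasma proteins had 4 higher and 18 lower of 37 (median -0.40, 8 and 22 without mouse 1). Alb was at 21939, 26979.8 and 22794 RPF CPM at day 4 and 18431, 15109 and 18822 at day 10 (log2 -0.48, SE 0.19, adjusted p = 0.0834). Ahsg, the serum glycoprotein fetuin-A, rose from 2464, 3257 and 2617 to 5141, 4891 and 6066.

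Inflammatory genes rose in more members than they fell, from list medians at day 4 that lay below those of WT. List medians of log2(CPM + 1) in RPF are given here relative to BM day 4. For acute phase genes they were 0.43, 0.07 and 0.23 in the day 10 mice, and 1.56 and 0.85 in WT at days 4 and 10. For interferon-stimulated genes they were 1.03, 0.58 and 0.57, and 0.90 and 0.87 in WT. Of 34 acute phase genes 13 rose and 5 fell in RPF (median 0.13), and 16 rose and 12 fell without mouse 1. Lcn2, the iron-sequestering lipocalin, went from 5.26, 12.8 and 6.88 to 714, 310.2 and 360.3 CPM (log2 5.76, SE 0.50, adjusted p = 0.000576), and Saa1, serum amyloid A, from 8.80, 9.44 and 9.46 to 92.9, 61.7 and 58.9. Both were highest in mouse 1. Mbl2, a mannose-binding lectin of the same list, fell 4.90-fold. Among interferon-stimulated genes 35 of 58 rose and 1 fell in RPF (median 0.84), and 24 rose and 1 fell of 56 in RNA (median 0.50). Without mouse 1 the counts were 34 higher and 13 lower in RPF and 24 and 14 in RNA, with medians of 0.62 and 0.12. Usp18, the protease that removes ISG15 from proteins, rose from 8.50, 9.96 and 11.2 to 94.3, 132 and 177 CPM (log2 3.73, SE 0.27, adjusted p = 0.000286).

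Macrophage, lymphocyte and, in RPF alone, neutrophil and monocyte marker sums were higher at day 10. In bulk liver fewer cells of a type and less RNA per cell cannot be told apart, and likewise more cells and more RNA. Of 12 Kupffer cell and macrophage markers 11 rose in RPF (median 1.26) and 11 in RNA (median 1.34). Their summed RPF went from 507 to 556 CPM at day 4 to 1125 to 1254 at day 10, and no marker was at 0 in all BM libraries. The day 4 sum lay below that of WT, which was 894 to 1022 CPM at day 4 and 717 to 995 at day 10. In RNA the BM sum went from 179 to 214 CPM to 446 to 514, with 416 to 485 and 386 to 471 in WT. Cd68, a lysosomal protein of macrophages, rose from 10.8, 11.3 and 13.4 to 39.2, 44.7 and 54.8 CPM (log2 1.94, SE 0.18, adjusted p = 0.000725). Stellate cell markers summed to 528 to 683 CPM at day 4 and 909 to 922 at day 10, with 4 higher and 1 lower of 10, while their RNA sums overlapped (235 to 309 and 271 to 292 CPM), with 4 higher and 2 lower of 9. Endothelial markers overlapped between days in their sum (913 to 1003 and 965 to 1184 CPM) while 6 of 11 rose and 2 fell in RPF and 1 rose and 1 fell in RNA, and cholangiocyte markers had none of 6 called. Neutrophil and monocyte markers summed to 8.07, 7.14 and 7.54 RPF CPM at day 4 and 21.1, 14.1 and 15.5 at day 10, highest in mouse 1, with 3 higher and 1 lower of 5, whereas in RNA the sums were 25.5, 17.1 and 18.2 and then 21.05, 8.94 and 8.31. Lymphocyte markers summed to 16.6 to 22.03 RPF CPM at day 4 and 42.3 to 44.5 at day 10, with 3 of 4 higher, and to 9.86 to 12.1 and 14.2 to 20.9 in RNA. WT lymphocyte sums in RPF were 29.1 to 34.9 CPM at day 4 and 27.5 to 42.7 at day 10. WT neutrophil and monocyte sums in RPF were 12.3 to 28.1 and 8.14 to 16.8. The sum of red blood cell markers was 441, 561 and 619 CPM at day 4 and 408, 1374 and 1895 at day 10. Hepatocyte markers summed to 32841 to 40035 CPM at day 4 and 21777 to 26341 at day 10, and 4 of 5 tested fell. Of 33 genes of TGF-beta signalling and matrix 17 rose and 1 fell (median 0.73), and 17 and 6 without mouse 1 (median 0.51), among them Col1a1, a chain of type I collagen, from 21.02, 28.4 and 41.3 to 174, 87.8 and 90.3 CPM. The part of these cell shares in the inflammatory and matrix values was not tested.

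Footprints relative to RNA (translational efficiency, TE) were tested as the interaction of day and library type. With all mice 17 genes were higher and 27 lower of 10676, 0.159% and 0.253%, against 873 genes at an unadjusted p under 0.05. With each mouse as a block, since both libraries of a mouse share a lysate, 140 rose and 190 fell, 1.31% and 1.78%. Without mouse 1, 1123 rose and 1429 fell of 10904, 10.3% and 13.1%. All 44 genes of the first count were called the same way without that mouse. The median TE change over all genes was 0.02.

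For most proliferation genes the fitted fall was larger in footprints than in RNA. The fitted RPF change was below the RNA change in 67 of 80 mitosis genes, 43 of 52 DNA replication genes and 35 of 38 histone genes, against 41 of 109 ribosome biogenesis genes and 26 of 55 urea cycle and amino acid genes. It was below in 5079 of all 10676 genes tested in both (47.6%) and in 1061 of the 2294 genes called lower in RNA (46.3%). In TE 3 of 80 mitosis genes were called lower with all mice, 25 with the mouse block and 34 without mouse 1, and none was called higher in any of these. For the histones the counts were 9, 25 and 27 of 38 lower and none higher, with a median of -1.28. Top2a had a TE change of -2.17 with all mice (adjusted p = 0.226), -2.34 with the block (adjusted p = 0.0418) and -3.20 without mouse 1 (adjusted p = 4.48e-05). Mcm2 RNA was at 28.2, 23.2 and 29.4 CPM at day 4 and 17.9, 24.1 and 18.95 at day 10, beside the RPF fall given above. Cdk2 was called with all mice, at -1.54 (adjusted p = 0.0288).

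**Figure D4:**
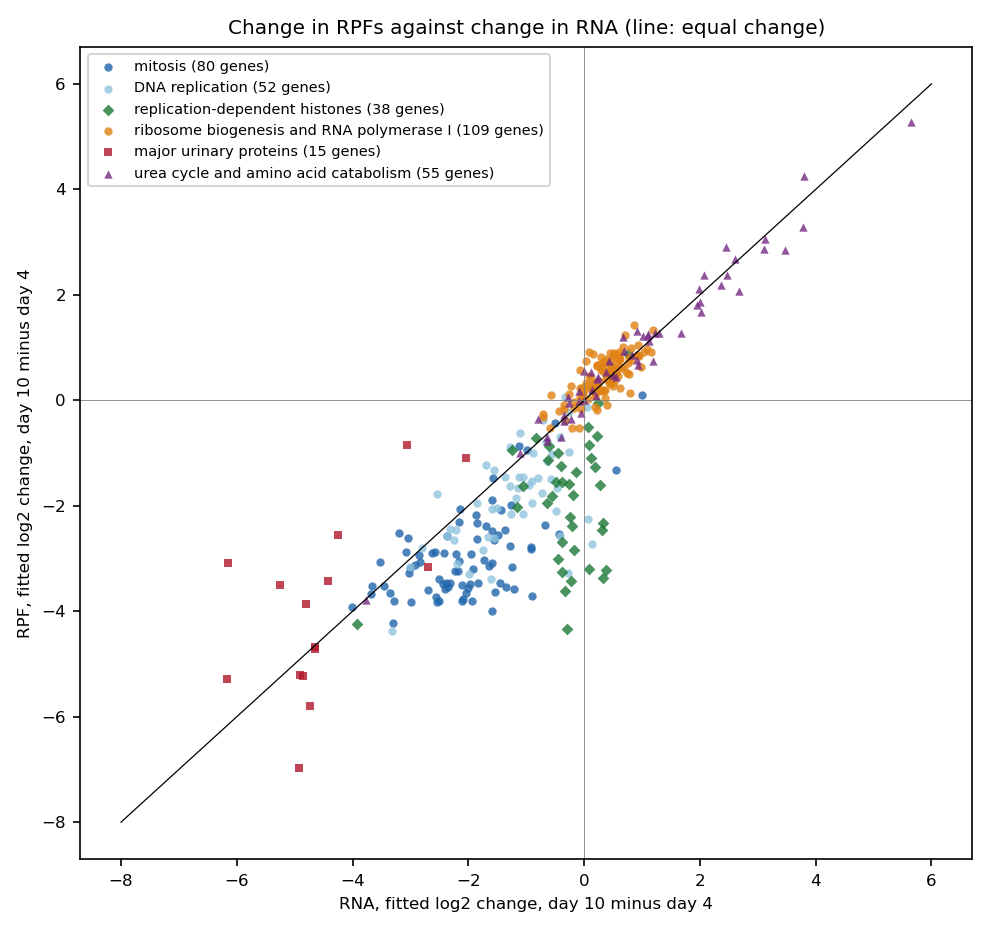
Fitted log2 change from day 4 to day 10 in RNA (x) and RPF (y) for the members of 6 gene lists, with a line of equal change. Mitosis and histone genes lie mostly below the line (67 of 80 and 35 of 38), and Mup genes lie on both sides, with 7 of 15 below.

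The genes of largest TE change included some whose RNA fell further than their footprints. Hsd17b6, an enzyme of steroid and retinoid metabolism, was at 157, 152 and 168 RPF CPM at day 4 and 92.8, 94.3 and 92.1 at day 10, with RNA at 84.5, 72.1 and 91.7 and 8.54, 4.81 and 3.89 (TE 3.03, SE 0.28, adjusted p = 0.000691). Mup3 had a TE change of 3.07 (adjusted p = 0.000691), and for the 15 Mup genes 2 were called higher, 6 with the mouse block and 7 without mouse 1, with none lower. Plin4, a lipid droplet coat protein, rose from 0.367, 0.655 and 0.728 to 22.2, 24.1 and 14.9 RPF CPM and from 2.21, 2.42 and 1.60 to 13.1, 12.6 and 8.57 in RNA (TE 2.63, adjusted p = 0.0299). Xaf1, an interferon-inducible antagonist of an apoptosis inhibitor, rose in RPF from 0.917, 1.2 and 1.72 to 8.53, 7.92 and 6.196 CPM with RNA at 14.4, 20.4 and 17.6 and 28.4, 20.4 and 17.1 (TE 2.21, adjusted p = 0.0279). On the other side Selenbp2, a selenium-binding protein gene with a near copy, fell from 96.4, 77.3 and 52.4 to 4.64, 2.41 and 1.82 in RPF and from 113, 99.4 and 74.97 to 56.00, 57.8 and 43.6 in RNA (TE -3.78, adjusted p = 0.00355). Sult5a1, a sulfotransferase, had a TE change of -4.13 (adjusted p = 0.0158) and H2bc11, a histone gene, of -4.03 (adjusted p = 0.00528).

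The same days were then compared in the other genotypes, and the difference of the day changes was tested in 1 model. Between days WT mice had 2.17% of genes higher and 2.28% lower in RPF (1.08% and 1.23% in RNA), M mice 0.485% and 0.476% (0.215% and 0.563%), and B mice 18.2% and 16.2% (7.92% and 7.32%). The RPF day change of BM exceeded that of WT for 17.1% of genes and lay below it for 18.6%, with 13.4% and 16.6% in RNA. Against M the shares were 15.0% and 15.8% in RPF and 11.5% and 14.0% in RNA, and against B they were 15.8% and 14.0% in RPF and 8.0% and 12.0% in RNA. Without day 10 mouse 1 the RPF shares were 25.8% above and 31.5% below WT, 24.6% and 28.4% for M, and 26.8% and 26.8% for B. All these tests use the same BM mice.

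The sign of the mitotic change separated BM from B. In B 70 of 76 tested mitosis genes rose and none fell (median 2.40), while no M member of 77 was called and the WT median was 0.30. The BM day change was below that of B in 78 of 80 genes, below that of M in 73 and below that of WT in 72, and above it in none. Mki67 footprints were at 3.13 to 8.21 CPM in B mice of day 4 and 16.3 to 54.2 at day 10, and at 22.2 to 36.01 and 9.96 to 40.2 in M mice. The difference of its day changes between BM and B was -5.53 (SE 0.63, adjusted p = 0.000246). Top2a gave -4.62 against WT (adjusted p = 0.000953) and Ccnb1 -6.53 against B (adjusted p = 0.000302).

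**Figure D5:**
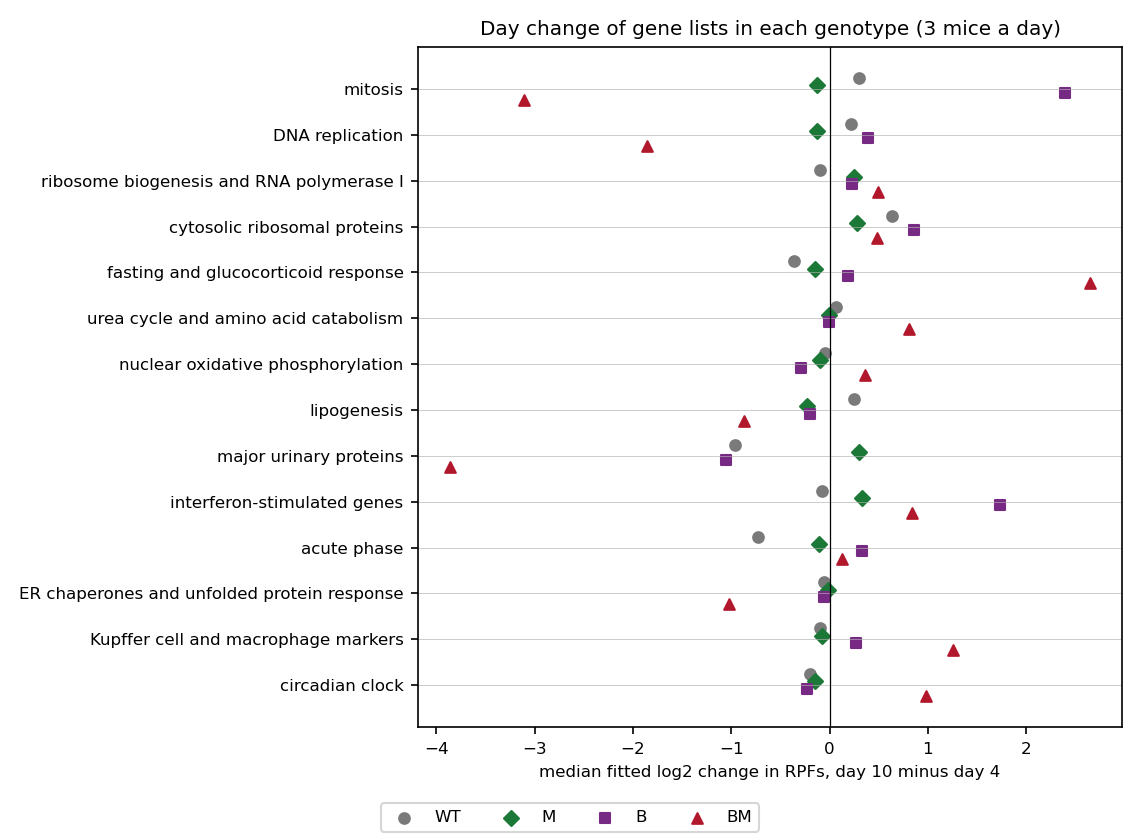
Median fitted log2 RPF change from day 4 to day 10 over the tested members of 14 gene lists in WT, M, B and BM mice. For mitosis the medians are 0.30, -0.13, 2.40 and -3.11, and for the fasting list -0.36, -0.15, 0.19 and 2.65.

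Fasting and nitrogen genes had a larger day change in BM than in each other genotype in more members than a smaller one. Of the fasting and glucocorticoid list 23 of 31 had a higher RPF day change in BM than in WT and 5 a lower, with 20 and 4 of 30 against M and 17 and 3 of 31 against B. Pck1 differed by 5.33 from WT (adjusted p = 0.000638), 5.33 from M (adjusted p = 0.00154) and 4.48 from B (adjusted p = 0.00316). Urea cycle and amino acid genes gave 30 higher and 4 lower of 56 against WT, 34 and 2 against M and 43 and 1 against B. Fabp1 lay below in all 3, by -5.89, -5.47 and -4.42. The Mup genes lay below WT in 14 of 16, below M in 15 of 15 and below B in 13 of 15.

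Footprints of ribosomal protein genes rose between days in WT and B as well, and those of interferon genes in B. Ribosomal protein RPF were higher at day 10 in WT (64 of 79) and B (71 of 79), and the BM day change was above that of WT in 2, of M in none and of B in none, with 2 below B. Without mouse 1 it was below that of WT in 48 and of B in 44. In RNA no ribosomal protein gene was called between days in WT or B, and of 83 the BM change was above that of WT in 31, of M in 28 and of B in 7, with none below. Of 110 ribosome biogenesis genes 50 exceeded WT, 14 M and 21 B in RPF, and 76, 51 and 56 without mouse 1. Of 58 interferon-stimulated genes 54 rose in B, and the BM change was below that of B in 24 and above it in 3, while it was above that of WT in 34 and of M in 20. Without mouse 1 it was above that of WT in 33 and below it in 11, above that of M in 20 and below it in 11, and above that of B in 3 and below it in 34. Usp18 differed by 3.59 from WT (adjusted p = 1.51e-05) and by 0.66 from B (adjusted p = 0.39). Cyp2f2 fell in B mice from 1468 to 2312 to 49.03 to 132 CPM, and its BM change differed from that of M by -4.08 (adjusted p = 0.000332) and from that of B by 0.38 (adjusted p = 0.686). Kupffer cell markers rose further in BM in 10 of 12 against WT, 8 against M and 7 against B.

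Further genes of large change, or of fetal liver, stood outside these groups or in smaller ones. Igf2 (chr7:142204503-142220694 on GRCm39), the fetal growth factor, went from 0.183, 0.0655 and 0.132 to 13.1, 22.7 and 38.7 RPF CPM (log2 7.48, SE 0.61, adjusted p = 0.000476) and from 0.158, 0.346 and 0.356 to 28, 31.6 and 41.3 in RNA. Afp, the fetal counterpart of albumin, rose by 0.47 on the log2 scale in RPF (adjusted p = 0.0575) and did not pass the test in RNA (adjusted p = 0.297). Gpnmb, a glycoprotein of phagocytes, went from 0.244, 0.655 and 0.529 to 22.04, 36.7 and 40.7 RPF CPM. Per1, a repressor of the circadian clock that glucocorticoids also induce, rose from 0.978, 0.852 and 3.90 to 24.5, 71.3 and 87.1 CPM, and Ciart, another clock repressor, from 0.306, 0 and 0 to 6.27, 23.8 and 15.2. Lyve1, a hyaluronan receptor of sinusoidal endothelium, was at 9.72, 11.6 and 12.04 CPM at day 4 and 36.95, 147 and 152 at day 10. In all of these the 3 day 10 mice lay above the 3 day 4 mice in RPF.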

How the data were processed

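Ribosome-protected fragments and cytoplasmic RNA of the same liver lysates were analysed from 6 BM mice, with the 18 mice of the other genotypes for comparison. The authors trimmed RPF reads (cutadapt 1.18), removed duplicates by their molecular identifiers (UMI-tools), aligned them with BBmap to 1 GENCODE vM27 transcript per gene, kept lengths of 30 to 38 and deposited counts per coding sequence, leaving out 20 codons at its start and 10 at its end. For RNA the authors used Bowtie2 2.3.5.1 and RSEM 1.3.3 and deposited expected counts and TPM per isoform. Versions follow the submitters' processing notes.

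Expected counts were summed per gene and rounded (at least 99.92% of values per library were already whole). A transcript missing from a library's RPF file was taken as 0. edgeR 4.0.16 (R 4.3.3) quasi-likelihood tests were run on each table after filterByExpr (10 counts, total 15) and TMM scaling, with Benjamini-Hochberg adjustment over all genes tested and a threshold of 0.1. TE was the interaction of day and library type, and differences between genotypes the interaction of day and genotype. Analogous fits were made with DESeq2 1.42.0, RLE size factors, other filters, a threshold of 0.05, a block for replicate number or mouse, and without each mouse. RPF and RNA libraries pair by lysate, and their deviations from the day means correlated at r = 0.384 to 0.661 in each mouse.

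Gene lists (55, and 2 for male and female liver added after values were seen) and members were chosen with earlier results of these data known. Genes named are those picked for a known role, the 8 of largest called change per direction and readout whose days do not overlap and whose higher group has 20 or more counts in every library, up to 2 members per list and direction, and genes that check labels or tissue. Libraries were compared over genes with a mean CPM over 5, as log2(CPM + 1). A bound or ratio against a day with 3 counts or fewer (the floor of 3 counts over the group) covers counting error only.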

Additional observations from a re-analysis of the deposited data

Results flagged for a closer look

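Day changes that differed between BM and another genotype were tested as an interaction in edgeR and are listed here as values. At an adjusted p under 0.1 the RPF day change of BM differed from that of WT in 4190 genes, from that of M in 3643 and from that of B in 3524. In RNA the numbers were 3518, 2997 and 2357. Against WT, Top2a gave a difference of -4.62 on the log2 scale and Mt2 of 10.71. Against M, Cyp2f2 gave -4.08 and Per1 6.05. Against B, Ccnb1 gave -6.53 and Pck1 4.48.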

How the results depend on the processing

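Leaving out day 10 mouse 1 changed each count of calls by more genes than any other choice tried, and the cause was not tested. For single named genes other mice mattered more. In RPF 50 of these lost their call without day 4 mouse 3, while 1 lost it and 13 gained one without day 10 mouse 1. Leaving out each mouse in turn gave 3366 to 8083 RPF calls and 3124 to 6485 RNA calls for BM between days, against 5278 and 4485 with all mice. The highest counts came without day 10 mouse 1, and the RPF count fell to 3492 without day 4 mouse 1 and to 3366 without day 4 mouse 3. For the RPF day change against WT, M and B the ranges were 3279 to 6765, 2690 to 6318 and 2491 to 6431, and for RNA against M and B 2255 to 4609 and 1556 to 4167, each highest without day 10 mouse 1. At an adjusted p under 0.05 RNA against B gave 1527. For TE the 44 calls became 162 with DESeq2 (51 higher, 111 lower), 16 with at least 10 counts in every library, 330 with the mouse as a replicate block, 2552 without day 10 mouse 1 and 7 to 19 without any other mouse.

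Without day 10 mouse 1, changes that were not called with all mice turned sign. For Eef2 the log2 change in RPF was -0.80 (0.28 to 0.87 without any other mouse) and in TE -0.87 (up to 0.76). For Odc1, the polyamine enzyme, it was -1.20 in RPF (up to 0.72) and -1.16 in TE (up to 0.47). For Gls2, a glutaminase, it was 0.43 in RNA (down to -0.40). Replicate numbers do not pair mice of the 2 days: same-numbered mice deviated from their day means with r of -0.111 to -0.062 in RPF and -0.129 to 0.082 in RNA. With number as a replicate block the calls were 4350 in RPF and 3937 in RNA. No scaling moved the median of all genes by over 0.1.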

Other observations

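Smaller gene groups of BM livers are given here as values of day 10 against day 4 in RPF. Of 21 circadian clock genes 12 rose and 1 fell (median 0.98), with Nr1d1, the repressor REV-ERB alpha, 5.29-fold higher and Npas2, a CLOCK paralogue, at -1.84 on the log2 scale. Of 41 NRF2 and glutathione genes 7 rose and 22 fell (median -0.40), and Hmox1, heme oxygenase, rose by 2.21 (adjusted p = 0.00228) while Osgin1, an oxidative stress response gene, was at -3.37 (adjusted p = 0.00373). Serine, folate and nucleotide synthesis had 7 of 38 higher and 17 lower (median -0.32). Phgdh, the entry enzyme of serine synthesis, was at -1.78, Cad, which starts pyrimidine synthesis, at -1.77, and Aldh1l1, a folate dehydrogenase, at 1.47, all called. Of 30 p53 targets and apoptosis genes 9 rose and 8 fell (median -0.06), near the shares of all genes (22.7% and 22.6%). Without day 10 mouse 1 the counts were 10 and 16 (median -0.47). Btg2, an antiproliferative p53 target, rose by 3.01.

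Oncofetal, progenitor and epithelial genes had 14 of 38 higher and 7 lower (median 0.32), and 14 and 10 without day 10 mouse 1 (median -0.08). Gpc3, the cell surface proteoglycan glypican 3, was at 1.10, 2.03 and 1.59 RPF CPM at day 4 and 6.27, 5.12 and 5.45 at day 10. Of 34 hepatocyte transcription factors 2 rose and 11 fell (median -0.17), and 8 and 17 without that mouse, with Foxa1 at -1.77 and Onecut1 at -1.68, and Hnf4a at 0.39 did not pass the test (adjusted p = 0.148). Iron, heme and metallothionein genes gave 8 higher and 9 lower of 30, near the shares of all genes (22.7% and 22.6%). Alas2, the heme synthesis enzyme of red cell precursors, went from 55.7, 73.3 and 72.2 to 9.17, 7.45 and 9.25 CPM while Hba-a1, an alpha globin, went from 151, 191 and 217 to 166, 561 and 744. Yap and Taz targets had 3 of 18 higher and 1 lower, a smaller share than that of all genes, and 3 and 5 without that mouse, and Ccn2, a matricellular target of that pathway, rose by 2.36. Solute carriers, tested in 229 members, gave 65 higher and 60 lower with a median of -0.01, a little above the shares of all genes. Without that mouse the counts were 78 and 98 of 233.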
